A study of Homo sapiens with 10 samples.

Results

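A list of 48 genes was examined, made of the core of Polycomb repressive complex 2 (PRC2), other histone lysine and arginine methyltransferases, demethylases and PHF6, a chromatin protein without an enzymatic role that is mutated in T-cell acute lymphoblastic leukaemia (T-ALL). They were matched by symbol to the versioned Ensembl IDs of the deposited tables. Of the 48 genes, 47 had an ID among the 55889 in the files, and 45 passed a filter of a mean of at least 1 RPKM (reads per kilobase of gene, scaled to the mapped reads of the library) in both assays, which 10297 genes passed in all. KMT2B, an H3K4 methyltransferase, matched no ID by name and was not analysed here. KDM5B, an H3K4 demethylase, was listed at 0 in all 4 footprint libraries and in 5 of the 6 RNA libraries, and at 0.00344 RPKM in silvestrol RNA library 1. A value listed at 0 can be a failed estimate, so it is not read as absence of expression. KDM7A, a demethylase of H3K9 and H3K27, had footprint values of 1.12 and 0.469 RPKM in silvestrol, against 0.561 and 0.447 RPKM in DMSO. Its RNA was 1.17, 1.17 and 1.18 RPKM in silvestrol and 1.1, 1 and 1.12 RPKM in DMSO, and it was not tested.

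Histone lysine methylation is set by methyltransferases (writers), most of which carry a SET domain, and removed by demethylases (erasers), either the flavin-dependent LSD1 family or the Jumonji oxygenases. PRC2 places methyl groups on H3K27, KMT2 and SETD1 enzymes on H3K4, the NSD family, ASH1L and SETD2 on H3K36, and DOT1L on H3K79. In T-ALL, loss-of-function lesions of EZH2, EED, SUZ12, KDM6A and PHF6 are known, and fusions of KMT2A recruit DOT1L.

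The cells were KOPT-K1, a human T-ALL line, treated for 45 minutes with 25 nM silvestrol, which inhibits the RNA helicase eIF4A of translation initiation, or with the solvent DMSO. Each treatment had 2 libraries of ribosome-protected fragments (footprints) and 3 of total RNA, and the labels do not say whether they came from separate cultures, so p-values measure the spread between libraries, which may be technical. The comparison asks which mRNAs lose or gain ribosomes when eIF4A is inhibited. Translational efficiency is the footprint level relative to the RNA level of the same gene, and a change in it is written on the log2 scale, silvestrol over DMSO. All 3 comparisons (RNA, footprints and translational efficiency) were tested with limma on log2(RPKM + 0.5), which understates changes of low genes, and called at an adjusted p under 0.05 over the 10297 genes. RPKM values are relative to the library total, so a change common to all genes is not seen.

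Depth, estimated from the steps of low RPKM values, was 2.38 M and 2.04 M reads in the silvestrol footprint libraries and 2.27 M and 1.66 M in the DMSO footprint libraries. The RNA libraries held, by a rough estimate, 127 M to 178 M reads in silvestrol and 167 M to 217 M in DMSO. The members had an estimated median of 124 footprint reads per library (means over the 4 libraries ran between 11 and 825), and KDM8, KMT5C, EZH1 and SUV39H2 had a library under 20 reads. Of 11 T-lineage markers, 10 passed the filter, with summed RNA of 3055 to 3159 RPKM in silvestrol and 3146 to 3290 RPKM in DMSO. Of 16 markers of B, myeloid, erythroid, stromal and epithelial cells, 14 were under 1 RPKM. CD79A averaged 30.8 RPKM in silvestrol RNA and 32.0 RPKM in DMSO RNA, and CD79B averaged 7.98 RPKM in silvestrol RNA and 8.62 RPKM in DMSO RNA.

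No member was called in any comparison. RNA of the members was nearly level between treatments, and footprints of 16 of 45 members (35.6%) lay lower in both silvestrol libraries than in both DMSO libraries, against 25.2% of all genes tested, among them the H3K9 methyltransferase SETDB1, the histone chaperone RBBP7 and several demethylases. The PRC2 catalytic subunit EZH2 was among 3 with the opposite order (6.67%), against 13.1% of all genes tested. The members are described below by role, beginning with their levels.

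The RNA of these genes spanned a wide range. In DMSO, the highest were RBBP4 (105 RPKM), PRMT1 (82.9 RPKM), EZH2 (71.8 RPKM), KDM1A (67.8 RPKM) and RBBP7 (56.1 RPKM), and the lowest of the 45 was KDM8 (2.15 RPKM). The median member had 11.9 RPKM of RNA, against 10.5 RPKM over all genes tested, and 5.54 RPKM of footprints, against 7.46 RPKM over all genes tested. Within the Polycomb core the 2 catalytic subunits were far apart in DMSO, with EZH2 at 71.8 ± 1.25 RPKM of RNA (SD, n = 3) and EZH1 at 6.40 ± 0.11 RPKM (SD, n = 3). Arginine methyltransferases PRMT1, PRMT5 and CARM1 had 82.9, 27.6 and 24.1 RPKM of RNA in DMSO. The 7 tested genes grouped here as H3K4 writers, KMT2E among them, lay between 3.90 (SETD7) and 19.6 RPKM (SETD1A). Their activity was not measured.

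**Figure D1:**
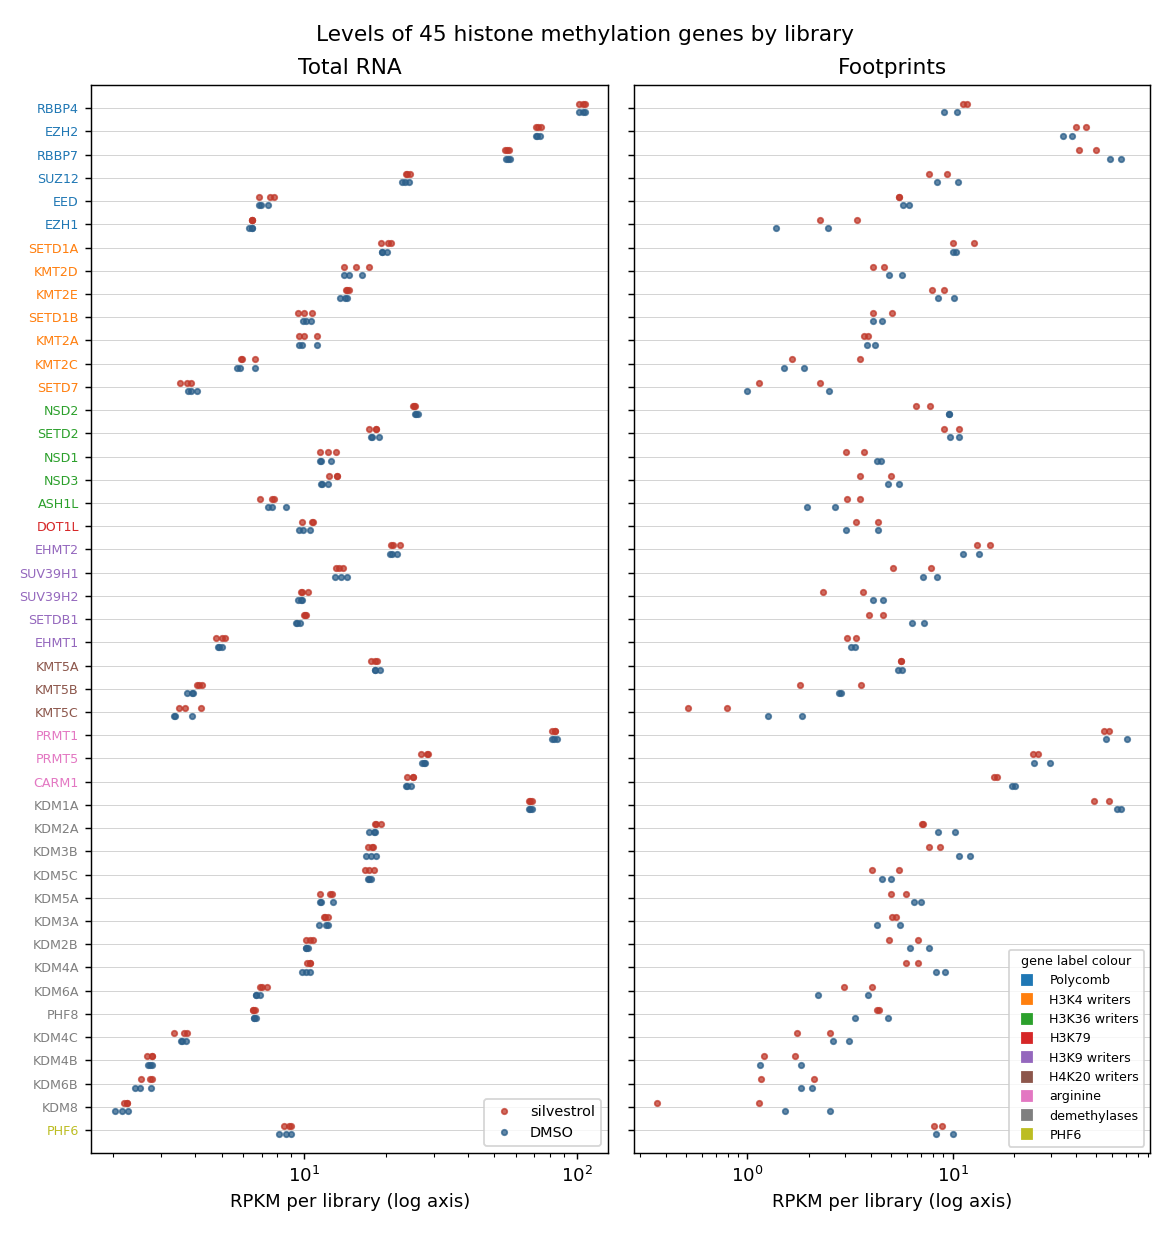
RPKM of the 45 tested genes in each library on log axes, total RNA on the left and footprints on the right, with silvestrol points (red) just above DMSO points (blue) and gene labels coloured by role. RBBP4, PRMT1, EZH2, KDM1A and RBBP7 hold the 5 highest RNA levels, and RBBP4 alone of these has footprints near 10 RPKM.

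The members carried few footprints for their RNA. The log2 ratio of mean footprint RPKM to mean RNA RPKM was taken with 0.5 added to each mean. It had a median of -1.0 in silvestrol and -0.80 in DMSO over the members. Over all genes tested it was -0.49 in silvestrol and -0.40 in DMSO. The typical member thus had a lower ratio than the typical gene in both treatments. The authors' RPKM divides by a gene length that was not given. The annotated coding share of the transcript had a median of 68.1% over the members. It was 49.9% over 8928 tested genes with an annotated coding transcript. The members thus had the higher coding share and the lower ratio. The part of length in the ratio was not tested. As plain ratios of the means, with nothing added, the highest among the members in DMSO were those of RBBP7 (1.11), PHF6 (1.06), PRMT5 (0.990) and KDM1A (0.953).

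RBBP4, a histone-binding subunit that PRC2 shares with other chromatin complexes, had the lowest ratio. Its RNA was 102, 107 and 106 RPKM in silvestrol and 107, 102 and 106 RPKM in DMSO, but its footprints only 11.2 and 11.8 RPKM in silvestrol and 10.5 and 9.07 RPKM in DMSO. Its ratio of footprint RPKM to RNA RPKM was 0.110 in silvestrol and 0.0932 in DMSO. That of its paralog RBBP7 was 0.817 in silvestrol and 1.11 in DMSO. The coding region is 16.1% of the annotated RBBP4 transcript and 54.7% of that of RBBP7, and RBBP4 has pseudogenes of near-identical sequence to which reads may be split, so its values are uncertain.

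**Figure D2:**
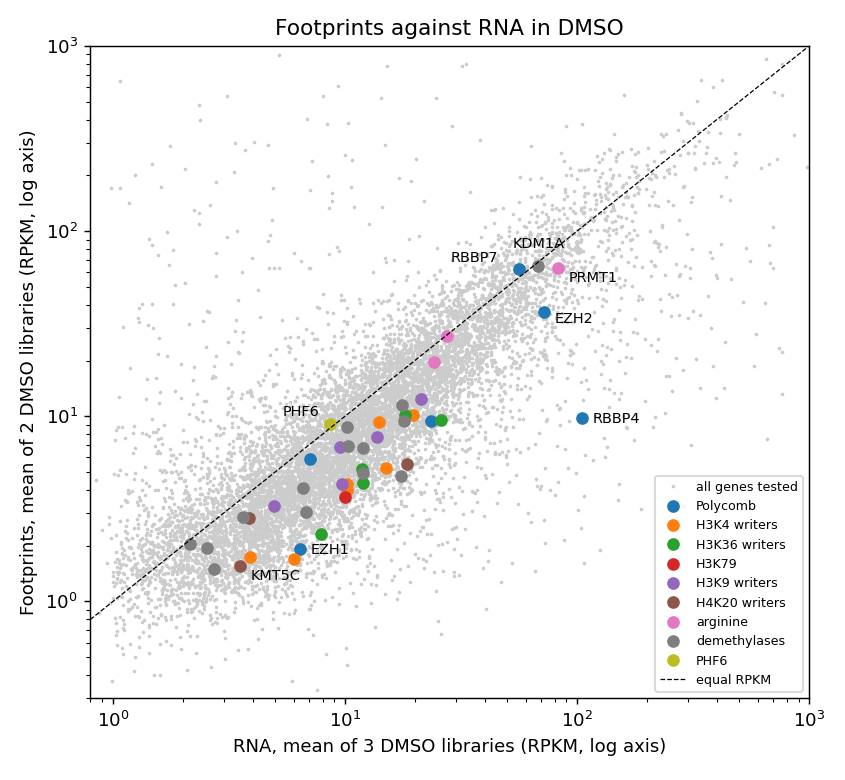
Mean footprint RPKM against mean RNA RPKM in DMSO on log axes, with all tested genes in grey, the members coloured by role and the dashed line at equal values (genes outside the axis ranges are not drawn). Most members lie below the line, RBBP4 farthest, while RBBP7 and PHF6 lie just above it.

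Total RNA differed little between treatments. In bulk libraries fewer cells that express a gene and less RNA per cell cannot be told apart. None of the 45 members was called, against 0.282% of all genes tested, and 42 of the 45 had overlapping groups. The log2 change of RNA had a median of 0.02 over the members and 0.00 over all genes tested, and ran between -0.07 (ASH1L) and 0.12 (NSD3). It was above 0 in 33 members (73.3%), against 52.5% of all genes tested. Under median scaling and quantile normalization 28 and 30 members were above 0, against 4187 and 4813 of all 10297 genes. This difference in share was not tested. Every 95% interval lay between -0.21 and 0.25, which is 0.865-fold to 1.19-fold, so larger RNA changes of single members at 45 minutes are outside these intervals. In 3 members every silvestrol RNA library lay above every DMSO RNA library, a pattern that 8.97% of all genes tested showed. They were the H3K36 methyltransferase NSD3, SETDB1 and the H4K20 methyltransferase KMT5B. They were also the 3 (6.67%) with an unadjusted p under 0.05, against 9.23% of all genes tested. NSD3 RNA was 12.4, 13.2 and 13.2 RPKM in silvestrol and 11.6, 11.7 and 12.3 RPKM in DMSO (adjusted p = 0.289, limma). No member had all silvestrol RNA libraries below all DMSO RNA libraries, which 3.99% of genes tested showed.

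Footprints and translational efficiency were measured with less precision. No member was called for footprints, against 0.0486% of all genes tested, and none for translational efficiency, against 0.107%. In translational efficiency 31 members had values below 0 and 14 above, a share below 0 of 68.9%, against 59.9% over all genes tested. The median was -0.16 over the members and -0.08 over all genes tested, with single members between -1.11 (KDM8) and 0.52 (ASH1L). Under median scaling and quantile normalization the members' median was -0.09 and -0.10, against -0.013 and -0.0048 over all genes tested. Then 27 and 26 of the 45 members were below 0, against 5328 and 5211 of all 10297 genes. The half-width of a member's 95% interval, not corrected for the number of genes tested, had a median of 0.60, or 1.52-fold. Changes of translational efficiency smaller than that were mostly not detectable at this depth. Larger ones could also go uncalled, as in SETDB1 (-0.71), KMT5C (-0.91) and KDM8 (-1.11), so the absence of calls does not exclude them. An unadjusted p under 0.05 was found for 3 members in translational efficiency (6.67%, SETDB1, KDM8 and RBBP7), against 7.38% of all genes tested, and for 2 in footprints (4.44%, RBBP7 and SETDB1), against 6.98%.

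Both silvestrol footprint libraries lay below both DMSO footprint libraries in 16 of the 45 members (35.6%), against 25.2% of all genes tested. These were EED, RBBP7, KMT2D, SETDB1, NSD1, NSD2, SUV39H2, KMT5C, CARM1, KDM1A, KDM2A, KDM3B, KDM4A, KDM4C, KDM5A and KDM8. The opposite order was found in 3 members (6.67%), EZH2, RBBP4 and ASH1L, against 13.1% of all genes tested. The remaining 26 members overlapped between treatments.

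**Figure D3:**
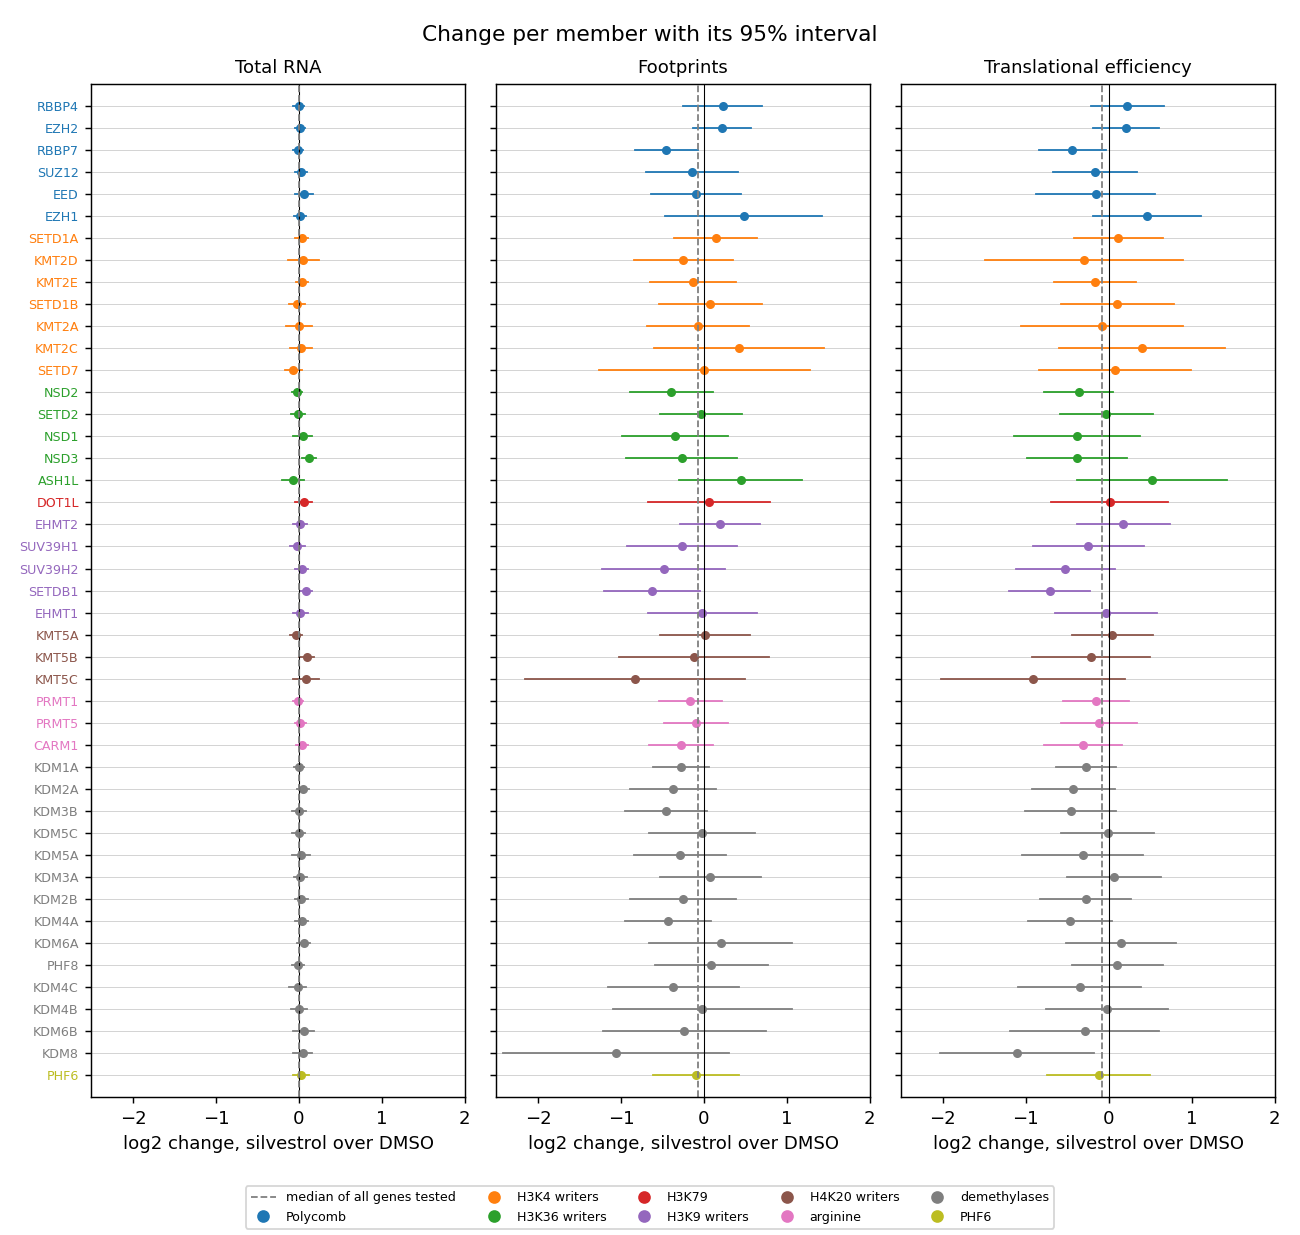
Log2 change (silvestrol over DMSO) of total RNA, footprints and translational efficiency for each tested gene with its 95% interval from limma, coloured by role, with the dashed line at the median of all genes tested. RNA intervals are narrow around 0, while footprint and translational efficiency intervals are several times wider and nearly all cross 0.

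The 6 PRC2 core genes were divided, none of them called, into 3 with translational efficiency below 0 and 3 above, with a median of 0.02. EZH2, the main H3K27 methyltransferase of dividing cells, had footprints of 44.7 and 40.1 RPKM in silvestrol and 34.4 and 38.3 RPKM in DMSO, with RNA of 71.0, 74.1 and 72.3 RPKM in silvestrol and 73.2, 70.8 and 71.4 RPKM in DMSO. Its footprint groups did not overlap and silvestrol was the higher, yet the change in translational efficiency of 0.21 had an interval between -0.19 and 0.61 (adjusted p = 0.871, limma). It was 0.13 without silvestrol footprint library 1 and 0.28 without silvestrol footprint library 2. Without DMSO footprint library 1 it was 0.13, and without DMSO footprint library 2 it was 0.28.

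EZH1, the second catalytic subunit, had footprints of 3.43 and 2.25 RPKM in silvestrol and 2.46 and 1.38 RPKM in DMSO, which overlapped. Its RNA was 6.47 RPKM in each silvestrol library and 6.45, 6.27 and 6.48 RPKM in DMSO. EED, which binds the H3K27me3 mark, had footprints of 5.51 and 5.45 RPKM in silvestrol and 6.10 and 5.72 RPKM in DMSO. These groups were separate but close, and the change in translational efficiency was -0.16 ± 0.33 (SE). SUZ12, the scaffold of the complex, had footprints of 9.38 and 7.66 RPKM in silvestrol and 10.6 and 8.37 RPKM in DMSO, which overlapped.

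RBBP7 had the smallest p of the core subunits. Its footprints were 41.1 and 49.9 RPKM in silvestrol and 66.3 and 58.3 RPKM in DMSO, while its RNA was 54.7, 56.7 and 55.7 RPKM in silvestrol and 57.0, 55.2 and 56.2 RPKM in DMSO. Silvestrol was lower in both footprint libraries and the RNA groups overlapped. The change in translational efficiency was -0.44 ± 0.19 (SE), with an interval between -0.85 and -0.04 and an adjusted p of 0.621 (limma). Exons of TXLNG lie opposite those of RBBP7 in GENCODE 29; TXLNG footprints were 8.49 and 7.60 RPKM in silvestrol and 7.12 and 11.5 RPKM in DMSO, which overlapped.

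Among the H3K9 methyltransferases, 4 of 5 had translational efficiency below 0 (median -0.24), and 3 of 5 under both scalings. SETDB1, which silences retroelements with its partner TRIM28, had the smallest p of all members. Its footprints were 3.92 and 4.58 RPKM in silvestrol and 7.28 and 6.37 RPKM in DMSO, from an estimated 66.1 and 66.1 reads in silvestrol and 117 and 75.0 reads in DMSO. Its RNA was 10.1, 10 and 10.2 RPKM in silvestrol and 9.65, 9.44 and 9.35 RPKM in DMSO. Footprints were thus lower and RNA slightly higher in every silvestrol library. The change in translational efficiency was -0.71 ± 0.23 (SE), with an interval between -1.20 and -0.22, an unadjusted p of 0.00801 and an adjusted p of 0.419 in the limma fit with a spread per assay. With 1 spread for both assays, a fit that called 3.99% of all genes lower and 1.3% higher, SETDB1 was the only member called (adjusted p = 0.020). Over its 18 alternatives the adjusted p ran between 0.020 and 0.865 and the change between -0.81 and -0.61.

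SETDB1 shares exonic sequence with CERS2, a ceramide synthase gene on the opposite strand in GENCODE 29, and the use of strand in the counting was not given. CERS2 footprints were 28.9 and 25.7 RPKM in silvestrol and 49.0 and 47.1 RPKM in DMSO, with RNA of 45.4, 45.4 and 45.1 RPKM in silvestrol and 47.1, 45.4 and 44.6 RPKM in DMSO. CERS2 thus had the same order of footprints as SETDB1, at a higher level and with a log2 change in translational efficiency of -0.79. If the counting ignored strand, reads of the 2 genes could not be told apart where they overlap. The size of the overlap was not measured, and the part of CERS2 in the SETDB1 values was not tested. In all, 23 of the 45 tested members overlap exons of a gene on the other strand.

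SUV39H2, a writer of H3K9 trimethylation in heterochromatin, had footprints of 3.66 and 2.34 RPKM in silvestrol and 4.08 and 4.56 RPKM in DMSO, and RNA of 9.83, 10.4 and 9.76 RPKM in silvestrol and 9.85, 9.79 and 9.56 RPKM in DMSO. The footprint groups were separate, from an estimated 31.0 and 17.0 reads in silvestrol and 33.0 and 27.0 reads in DMSO. The change in translational efficiency was -0.52 ± 0.28 (SE; adjusted p = 0.724, limma), and was -0.80 without silvestrol footprint library 1 and -0.25 without silvestrol footprint library 2. EHMT2, the writer of H3K9 dimethylation also called G9a, had 15.2 and 13.1 RPKM of footprints in silvestrol and 13.5 and 11.2 RPKM in DMSO, with silvestrol the higher on average and the groups overlapping.

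**Figure D4:**
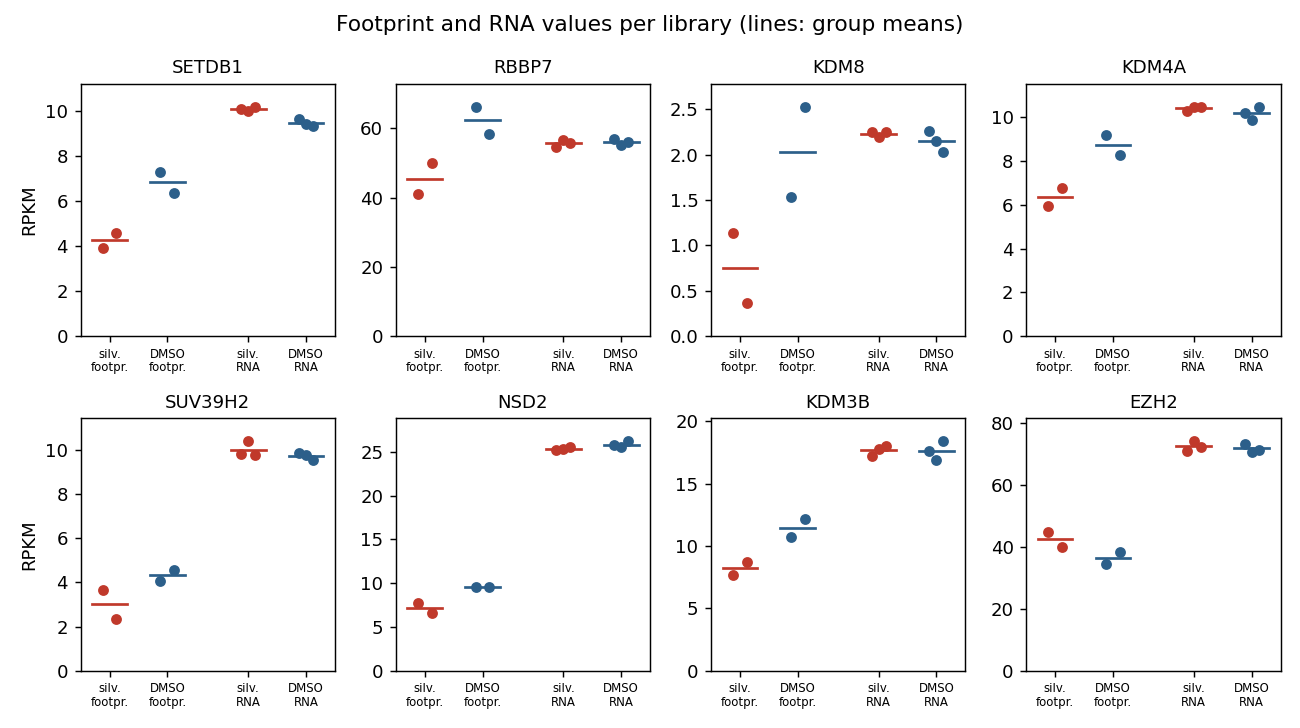
Footprint and RNA values of 8 members in every library, silvestrol (red) left of DMSO (blue) in each assay, with lines at the group means and axes that start at 0. RNA values lie nearly level, though those of SETDB1 are slightly higher in every silvestrol library. Footprints lie lower in both silvestrol libraries for 7 genes and higher for EZH2. The 7 were chosen for the smallest p in translational efficiency or footprints, so their shared direction does not describe the members as a whole.

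The H3K36 methyltransferases had the lowest role median of those with at least 5 members, at -0.36, with 4 of 5 below 0 and 3 of 5 under both scalings. NSD2, which writes H3K36 dimethylation and carries an activating mutation in some lymphoid leukaemias, had footprints of 7.74 and 6.64 RPKM in silvestrol and 9.55 and 9.56 RPKM in DMSO, and RNA of 25.2, 25.3 and 25.5 RPKM in silvestrol and 25.8, 25.5 and 26.2 RPKM in DMSO. Its footprint groups were separate and the change in translational efficiency was -0.36 ± 0.19 (SE; adjusted p = 0.718, limma). Its paralogs NSD1 and NSD3 had values of -0.39 and -0.38. ASH1L, the fifth, had the highest value of all members at 0.52, with footprints of 3.54 and 3.07 RPKM in silvestrol and 1.96 and 2.67 RPKM in DMSO and an interval between -0.38 and 1.42.

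The genes grouped as H3K4 writers centred near 0, with a median of 0.08 and 3 of 7 below 0. KMT2A, the MLL gene of leukaemia fusions, had footprints of 3.69 and 3.88 RPKM in silvestrol and 4.19 and 3.81 RPKM in DMSO, and RNA of 9.59, 10 and 11.2 RPKM in silvestrol and 9.62, 9.81 and 11.2 RPKM in DMSO. Both sets overlapped, and the change in translational efficiency was -0.08 with an interval between -1.05 and 0.90. DOT1L, the H3K79 methyltransferase, had footprints of 3.37 and 4.33 RPKM in silvestrol and 4.35 and 3.02 RPKM in DMSO, which overlapped, and a change of 0.01 ± 0.33 (SE).

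Among the H4K20 writers, KMT5A, which writes the monomethyl mark, was nearly level, with footprints of 5.6 and 5.58 RPKM in silvestrol and 5.68 and 5.39 RPKM in DMSO. KMT5C, a writer of the di- and trimethyl marks, had 0.793 and 0.515 RPKM in silvestrol and 1.85 and 1.26 RPKM in DMSO, from only an estimated 9.0 and 5.0 reads in silvestrol and 20.0 and 10 reads in DMSO. Its change of -0.91 in translational efficiency had an interval between -2.02 and 0.19. The 3 arginine methyltransferases all had values below 0, between -0.31 (CARM1) and -0.12 (PRMT5), each with an interval that included 0.

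Most demethylases had translational efficiency below 0, as did most genes tested, and no demethylase was called. Of the 14 tested, 11 had values below 0, against 59.9% of all genes tested. Their median was -0.28, against -0.08 over all genes tested. Under median scaling and quantile normalization 9 of 14 were below 0, against 5328 and 5211 of all 10297 genes. The demethylase medians were then -0.22 in each case, against -0.013 and -0.0048 over all genes tested. The difference from other genes was not tested. KDM1A (LSD1), which removes mono- and dimethyl marks from H3K4, had footprints of 49.0 and 58.0 RPKM in silvestrol and 66.1 and 63.1 RPKM in DMSO, and RNA of 67.1, 68.7 and 67.7 RPKM in silvestrol and 68.7, 67.2 and 67.4 RPKM in DMSO. Its footprint groups were separate and its RNA groups overlapped, with a change in translational efficiency of -0.28 ± 0.17 (SE; adjusted p = 0.771, limma). The change was -0.16 without silvestrol footprint library 1 and -0.40 without silvestrol footprint library 2. It was -0.24 without DMSO footprint library 1 and -0.31 without DMSO footprint library 2.

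KDM3B, an H3K9 demethylase, had footprints of 7.71 and 8.71 RPKM in silvestrol and 10.7 and 12.2 RPKM in DMSO, and RNA of 17.2, 17.8 and 18.0 RPKM in silvestrol and 17.6, 16.9 and 18.4 RPKM in DMSO. KDM4A, which acts on H3K9 and H3K36, had footprints of 5.94 and 6.75 RPKM in silvestrol and 9.21 and 8.26 RPKM in DMSO, and RNA of 10.3, 10.5 and 10.5 RPKM in silvestrol and 10.2, 9.87 and 10.5 RPKM in DMSO. In both genes the footprint groups were separate and the RNA groups overlapped. The change in translational efficiency was -0.46 ± 0.25 (SE) for KDM3B and -0.47 ± 0.23 (SE) for KDM4A, with adjusted p of 0.734 and 0.698 (limma).

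KDM8, a Jumonji-domain protein, had very few footprint reads. Its footprints were 1.14 and 0.364 RPKM in silvestrol and 1.53 and 2.53 RPKM in DMSO, which were separate but rest on an estimated 10.9 and 3.0 reads in silvestrol and 14.0 and 17.0 reads in DMSO. Its RNA was 2.25, 2.19 and 2.25 RPKM in silvestrol and 2.26, 2.15 and 2.03 RPKM in DMSO. The change in translational efficiency of -1.11 ± 0.43 (SE) had an adjusted p of 0.572 (limma). Without silvestrol footprint library 2 it was -0.64, and over its 17 alternatives it ran between -1.57 and -0.64 with adjusted p between 0.139 and 0.993.

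The H3K27 demethylases and PHF6 had overlapping footprints. KDM6A (UTX) had 2.97 and 4.04 RPKM in silvestrol and 3.89 and 2.21 RPKM in DMSO, and KDM6B (JMJD3) had 1.16 and 2.10 RPKM in silvestrol and 2.07 and 1.82 RPKM in DMSO. Their changes in translational efficiency were 0.15 ± 0.31 and -0.29 ± 0.41 (SE). PHF6 had footprints of 8.87 and 8.09 RPKM in silvestrol and 8.26 and 9.99 RPKM in DMSO, RNA of 8.49, 8.96 and 8.82 RPKM in silvestrol and 8.63, 8.12 and 9.0 RPKM in DMSO, and a change of -0.12 ± 0.29 (SE).

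The annotated 5′ untranslated regions (UTRs) were then described, because eIF4A unwinds structure there and GC-rich repeats can fold into G-quadruplexes. The median 5′ UTR of the 45 members was 218 nt, against 195 nt over 8928 tested genes, and the GC content 66.2% against 66.0%. A run of at least 4 consecutive GGC or CGG repeats on the sense strand was present in 7 members (15.6%), against 417 genes (4.67%). The G-quadruplex pattern of 4 runs of GGG with loops of 1 to 7 bases was present in 6 members (13.3%), against 10.8%. The 7 were EZH2, KMT2C, NSD3, KMT5B, KMT5C, CARM1 and KDM5C. Windows of up to 30 bases around the longest run, which joins overlapping or adjoining repeats, are shown for 6 of them, 5′ to 3′ on the sense strand of the GENCODE 29 transcript, with the repeat in capitals, since these letters are what the genes have in common.
EZH2: agcccCGGCGGCGGCGGCGGCGGCgcgcg
KMT2C: gcagcagCGGCGGCGGCGGCGGCcgcggcg
KMT5B: ggcgcgaCGGCGGCGGCGGCGGCcggttgg
KMT5C: ggaggtgttGGCGGCGGCGGCgcgggcgcc
CARM1: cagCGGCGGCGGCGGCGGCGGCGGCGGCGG
KDM5C: aaccaagatGGCGGCGGCGGCgctgaaggc

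The repeat ran for 19 nt in EZH2, ending 56 nt before the start codon, for 16 nt in KMT2C and KMT5B, for 12 nt in KMT5C and KDM5C, and for 49 nt in CARM1, where the window holds its first part. The genes that carry it did not share a direction. Changes in translational efficiency were 0.21 in EZH2 and 0.40 in KMT2C, but -0.91 in KMT5C, -0.38 in NSD3, -0.31 in CARM1, -0.22 in KMT5B and -0.02 in KDM5C. The median was -0.22 over the 7 members with the repeat and -0.16 over the 38 without, and -0.13 over 417 genes with it and -0.08 over 8511 without. The 22 members with a 5′ UTR above the members' median length had a median of -0.17, and the other 23 a median of -0.12. These medians are descriptions without a test. The annotated 5′ UTR of CERS2, which lies opposite SETDB1, also holds such a run, and that of SETDB1 does not. Any part of the run in the footprints of either gene was not tested.

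**Figure D5:**
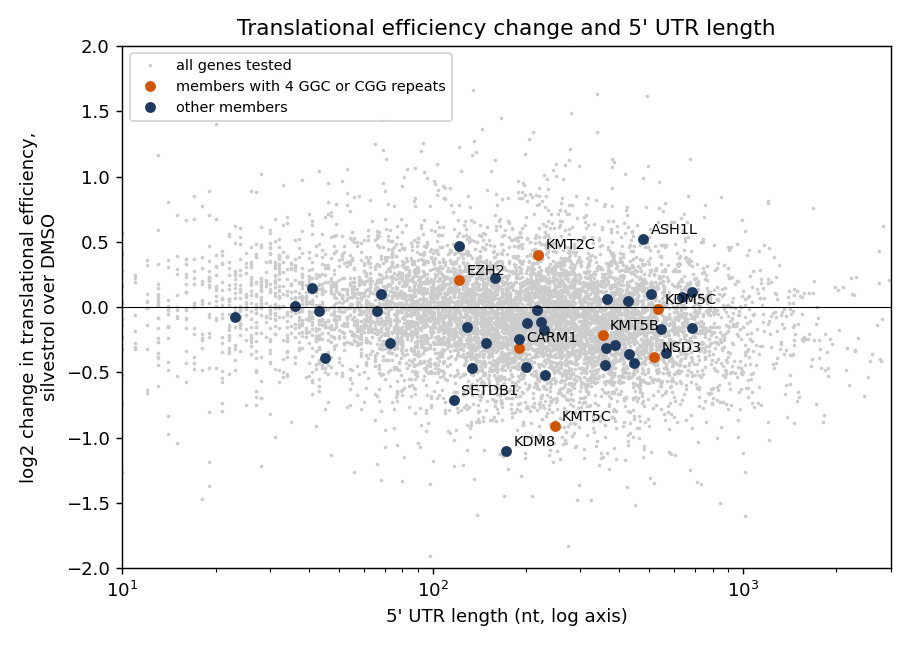
Log2 change in translational efficiency (silvestrol over DMSO) against annotated 5′ UTR length on a log axis, with all tested genes in grey, members with the repeat in orange and other members in blue (genes outside the axis ranges are not drawn). The 7 members with the repeat lie on both sides of 0, between -0.91 (KMT5C) and 0.40 (KMT2C).

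Partners of these enzymes were covered by a list of 57 other genes of the pathway: COMPASS and PRC2 accessory subunits, further writers and erasers, KDM1A and DOT1L complex members, and readers. Of these, 54 matched an ID and 51 were tested, and none was called in any comparison. Their medians were 0.01 for RNA, -0.10 for footprints and -0.08 for translational efficiency, close to those over all genes tested (0.00, -0.07 and -0.08). An unadjusted p under 0.05 was found for 2 of the 51 genes in RNA, against 9.23% of all genes tested. It was found for 1 of the 51 in both footprints and translational efficiency, against 6.98% and 7.38% of all genes tested. That gene, HCFC1, a subunit of SETD1 and KMT2 complexes singled out after its values were seen, averaged 21.0 RPKM of footprints in silvestrol and 36.9 RPKM in DMSO, with RNA of 46.3 RPKM in silvestrol and 44.2 RPKM in DMSO. Its change in translational efficiency was -0.86 ± 0.23 (SE; adjusted p = 0.304, limma).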

How the data were processed

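Per the file headers, the authors deposited RPKM values in 1 table per library, with 55889 gene IDs each. The submitters' processing notes name STAR and hg19. The sources used here do not give the counting method, annotation, gene lengths, strand setting or handling of multi-mapped reads, so overlapping and near-identical genes are uncertain. Replicate numbers came from the sample titles. A table of gene names matched 49395 IDs. GENCODE 29 (another build) was used by gene ID only, for lengths, UTRs and overlaps; 1 transcript per gene was taken (best APPRIS level, basic set, longest coding sequence).

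Depth was estimated from RPKM steps and exon length. Values were log2(RPKM + 0.5), libraries as deposited. Genes with a mean of at least 1 RPKM in both assays were tested with R 4.3.3 and limma 3.58.1 (eBayes, trend and robust, two-sided, Benjamini-Hochberg). RNA used 6 libraries, footprints 4, and translational efficiency the assay-by-treatment interaction in all 10, with weights per assay. The fits were tested on simulated data, where those that use footprints made more false calls than the threshold allows, so their p-values and intervals are optimistic. Alternatives covered pseudocounts, filters, scalings, 1 spread, a 1.2-fold test, a replicate block and left-out libraries.

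Members and lists were chosen with earlier results of these data known. Values per library are given for the PRC2 core, 7 members known in T-ALL, and the members with the smallest p (6 for translational efficiency, 4 for footprints). Values per library of KDM7A, KDM5B, RBBP4, NSD3, ASH1L, EHMT2, KMT5A and KMT5C were added after they were seen.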

Additional observations from a re-analysis of the deposited data

How the results depend on the processing

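The count of members called was 0 in every RNA and footprint alternative and in every translational efficiency alternative but 1 spread for both assays, which called 1 (SETDB1). The members' median change kept its sign throughout. For footprints it was -0.12, against -0.13 with a pseudocount of 0.1, -0.10 with a pseudocount of 1, -0.10 with no filter, -0.15 with at least 5 RPKM, -0.070 under median scaling, -0.039 under quantile normalization and between -0.17 and -0.060 when 1 library was left out (-0.060 without silvestrol footprint library 1), the remaining library being taken to vary like the other group. For translational efficiency it was -0.16, against -0.17 with a pseudocount of 0.1, -0.17 with at least 5 RPKM, -0.093 under median scaling, -0.10 under quantile normalization and between -0.22 and -0.13 with 1 library left out. Counts over all genes moved more. RNA calls were 29, against 0 with no filter, 0 against a 1.2-fold change, 57 with the replicate block and between 0 and 35 with 1 library left out (1 without silvestrol RNA library 3, and 0, 5 and 0 without DMSO RNA libraries 1, 2 and 3). Footprint calls were 5, against 2 with a pseudocount of 0.1, 280 with no filter, 2 with at least 5 RPKM, 8 under quantile normalization, 1 with the block and 0 in every fit with 1 library left out. Translational efficiency calls were 11, against 271 with no filter, 545 with 1 spread and between 8 and 44 with 1 library left out (44 and 31 without silvestrol footprint libraries 1 and 2, and 21 without DMSO footprint library 1). The causes were not tested. Deviations of same-numbered libraries had r = -0.03 for footprints, where 2 libraries per group force both pairs to share 1 value. For RNA, r was 0.04, -0.33 and 0.15. With so few libraries these values cannot decide whether the numbers mark pairs. The numbers were not taken as pairs, and the replicate block called no member. With 1 library left out or another scaling, translational efficiency of several uncalled members moved by over 1.5 times: over all alternatives EZH1 ran between 0.14 and 0.79, EED between -0.21 and -0.066, SUZ12 between -0.33 and -0.010, KDM6A between -0.20 and 0.49, KDM6B between -0.61 and 0.033, PHF6 between -0.25 and 0.0063, KMT2A between -0.14 and 0.0072 and DOT1L between -0.22 and 0.24. Of 710 values of single members under alternatives, 33 changed sign, each within its standard error. Footprint depth limits the precision: single members under 20 reads cannot be ranked.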
